A study of Saccharomyces cerevisiae with 24 samples.

Results

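The proteins of the large subunit of the cytosolic ribosome were followed through adaptation of budding yeast (Saccharomyces cerevisiae) to hydrogen peroxide. The members are the open reading frames (ORFs) whose standard name is RPL with a number and an optional A or B, together with the stalk genes RPP0, RPP1A, RPP1B, RPP2A and RPP2B. They number 81 of the 6251 ORFs measured. Of these, 70 form 35 pairs of A and B copies and 11 are single-copy genes (RPL3, RPL5, RPL10, RPL25, RPL28, RPL29, RPL30, RPL32, RPL38, RPL39 and RPP0).

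RNA of treated and untreated cells was hybridized together on 24 two-colour arrays, 4 in each of 6 groups. Strains without MGA2, ROX1 or YAP1 were pretreated with 0.1 mM H2O2 for 45 min and are called mga2Δ, rox1Δ and yap1Δ here. Wild type cells (BY4741) received the same pretreatment, the adapted protocol (0.1 mM for 45 min and then 0.4 mM for 1 h) or the acute protocol (0.4 mM for 1 h alone). The deletion strains come from the haploid deletion collection in the same background, each replicate grew from a single colony in rich medium at constant temperature, and poly(A) RNA was labelled. The untreated RNA of the wild type arrays came from a sham-treated part of the same culture. The strain of the untreated RNA on the deletion arrays is not stated in the labels, and for yap1Δ the study's text names wild type cells. If that RNA was wild type, effects of strain and treatment cannot be told apart in the yap1Δ ratios. Every ratio below is treated over untreated on the log2 scale, relative to the other mRNAs on the array, so that a value below 0 means less of an mRNA in treated than in untreated cells. In such bulk cultures, fewer cells with an mRNA and less of it per cell cannot be told apart.

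The large subunit catalyses peptide bond formation at the peptidyl transferase centre, which is made of ribosomal RNA, and releases the growing chain through a tunnel lined by a few of its proteins. Its acidic stalk recruits the elongation factors, and a particle of 5S RNA with RPL5 and RPL11 caps the central protuberance. In yeast the ribosomal protein genes are among the most strongly transcribed genes. They are known to be switched together through Rap1, Fhl1, Ifh1 and Sfp1, and to be repressed in many kinds of stress.

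Of the 81 members, 79 had values in all groups and were tested. RPL41A had no value in pretreated wild type cells and RPL41B had none in acutely treated ones. Both encode the smallest protein of the ribosome. The targeted gene of each deletion strain had no value on the arrays of that strain, whereas MGA2, ROX1 and YAP1 all had values on the wild type pretreated arrays.

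Members were among the brightest features. Their median untreated intensity lay between the 97.4th and the 98.8th percentile of the ORFs on every array. The orientation of the dyes moved them as well, so it is given beside each result: on 2 arrays of each group the treated RNA was in Cy5 and on the other 2 it was in Cy3. In pretreated wild type cells the median member was at -0.17 with treated RNA in Cy5 and at 0.22 with treated RNA in Cy3, and arrays of opposite orientation correlated negatively across the 79 members (Pearson r between -0.78 and -0.74, a description across genes that share arrays). The difference between orientations was largest for RPL20A (-2.34 on the log2 scale, Cy5 minus Cy3, in pretreated wild type cells) at one end and RPP0 (1.82) at the other. Across the 79 members this difference in the acute arrays followed that in the pretreated arrays (Pearson r 0.74, Spearman rho 0.70). The fitted values below come from limma with a mean per group and a dye term for each gene, in which orientation is balanced within each group.

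**Figure D1:**
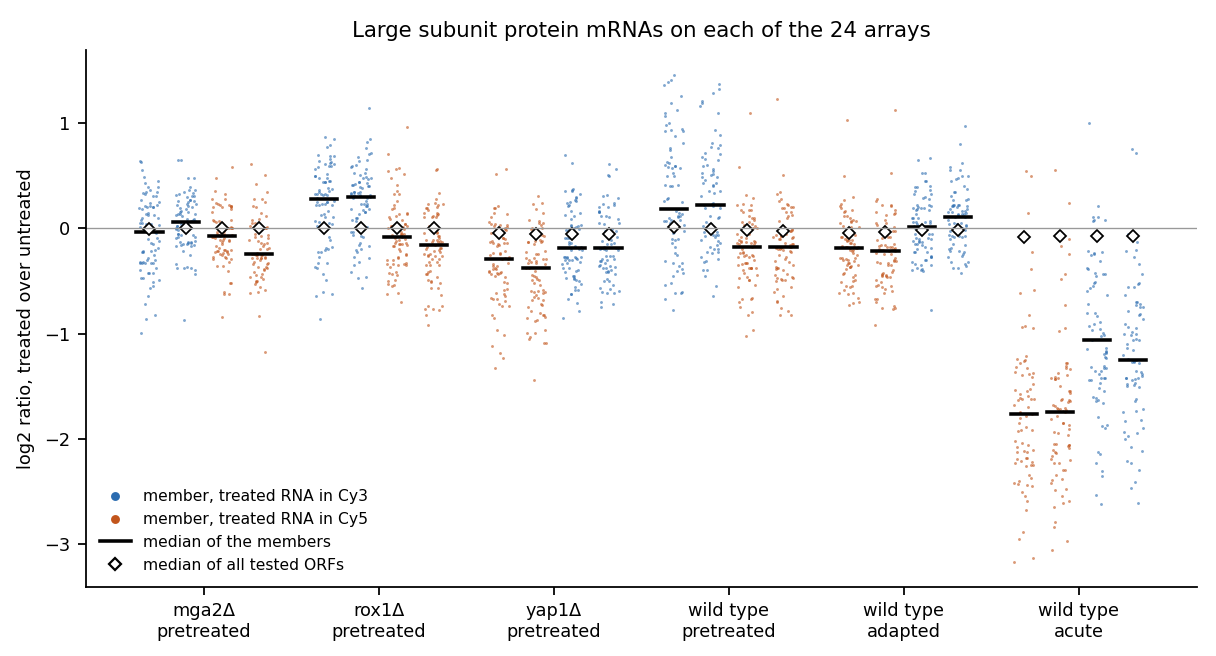
Log2 ratio of treated over untreated RNA of the 79 tested large subunit genes (points) on each array, grouped by strain and protocol, with colour for the dye of the treated RNA. The members' median (bar) was between -1.76 and -1.06 on the 4 acute arrays and between -0.38 and 0.29 on the other 20, while the median of all tested ORFs (diamond) stayed near 0.

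The pretreated, adapted and acute protocols ask whether the genes respond to a mild dose, to a high dose after it, and to the high dose alone. After pretreatment of wild type cells the members' fitted values ran from -0.23 (RPP1B) to 0.44 (RPP1A), with a median of 0.02 against -0.02 for all tested ORFs. No member passed an adjusted p of 0.05 (limma), where 1.01% of all tested ORFs did, and 3, among them RPL6B and RPL13A, were above 0 at an unadjusted p under 0.05. No share of all tested ORFs was computed at an unadjusted p. Such counts, here and below, are therefore not read as a result about the members. For 58 of 79 members the 95% interval lay within 0.5 of 0 in either direction. RPP1A, whose arrays were at -0.28 and -0.36 with treated RNA in Cy5 and at 1.26 and 1.16 with treated RNA in Cy3, had an interval that reached up to 1.03. With the pretreated wild type arrays fitted alone 24 members were raised and 9 lowered, where 15.5% and 18.4% of all tested ORFs were in that fit.

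In adapted cells, which received the same high dose as the acute cells, the median member was at -0.09, against -0.04 for all tested ORFs. RPL9A, RPL9B and RPL22B were lowered and none was raised. This is 3 of 79 members lowered, where 7.27% of all tested ORFs were lowered and 6.29% raised. RPL9A was at -0.36, -0.40, -0.26 and -0.42 on the 4 adapted arrays, all below 0 and close to each other, with a fitted value of -0.36 ± 0.10 (SE, adjusted p = 0.0193, limma). RPL9B was at -0.37, -0.21, -0.39 and -0.38, fitted at -0.34 ± 0.11 (adjusted p = 0.047, limma). Both encode RPL9, a protein that lies near the base of the stalk. RPL22B was at -0.70 and -0.76 on the arrays with treated RNA in Cy5 and at 0.02 and -0.27 on those with Cy3, fitted at -0.43 ± 0.14 (adjusted p = 0.0407, limma), so that 1 of its 4 arrays did not lie below 0. With each array of the group left out in turn, the calls of RPL9B and RPL22B were lost every time (adjusted p of up to 0.198 and 0.258, limma) and that of RPL9A without replicate 1, 2 or 4 (up to 0.0992). The count in adapted cells was 0 without replicate 1, 2 or 4, where 4.94%, 3.59% and 2.84% of all tested ORFs were lowered, and 1 without replicate 3 (4.46%). After centring of each array 5.01% of all tested ORFs were lowered and 7.29% raised, with 1 member lowered. More members were called with a dye term per group, or with the adapted arrays fitted alone, as given at the end. The adapted minus pretreated contrast called no member (0.503% of all tested ORFs), and 3 were lower at an unadjusted p under 0.05.

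The acute protocol lowered the mRNAs of nearly the whole subunit. The median member was at -1.49, which is 35.5% of the untreated level or 2.82-fold lower, against a median of -0.08 for all tested ORFs. Lowered were 75 of 79 members and raised was 1, where 41.3% and 32.5% of all tested ORFs were lowered and raised. Of the 79 members, 65 had a fitted value under -1 and 10 a value under -2. All 4 arrays were below 0 for 71 members, where this held for 33% of all tested ORFs. With treated RNA in Cy5 the median member was at -1.78 and with Cy3 at -1.17, and 75 of the 79 were below 0 in both orientations. The small subunit, given for scale, had 52 of 54 tested genes lowered with a median of -1.50.

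**Figure D2:**
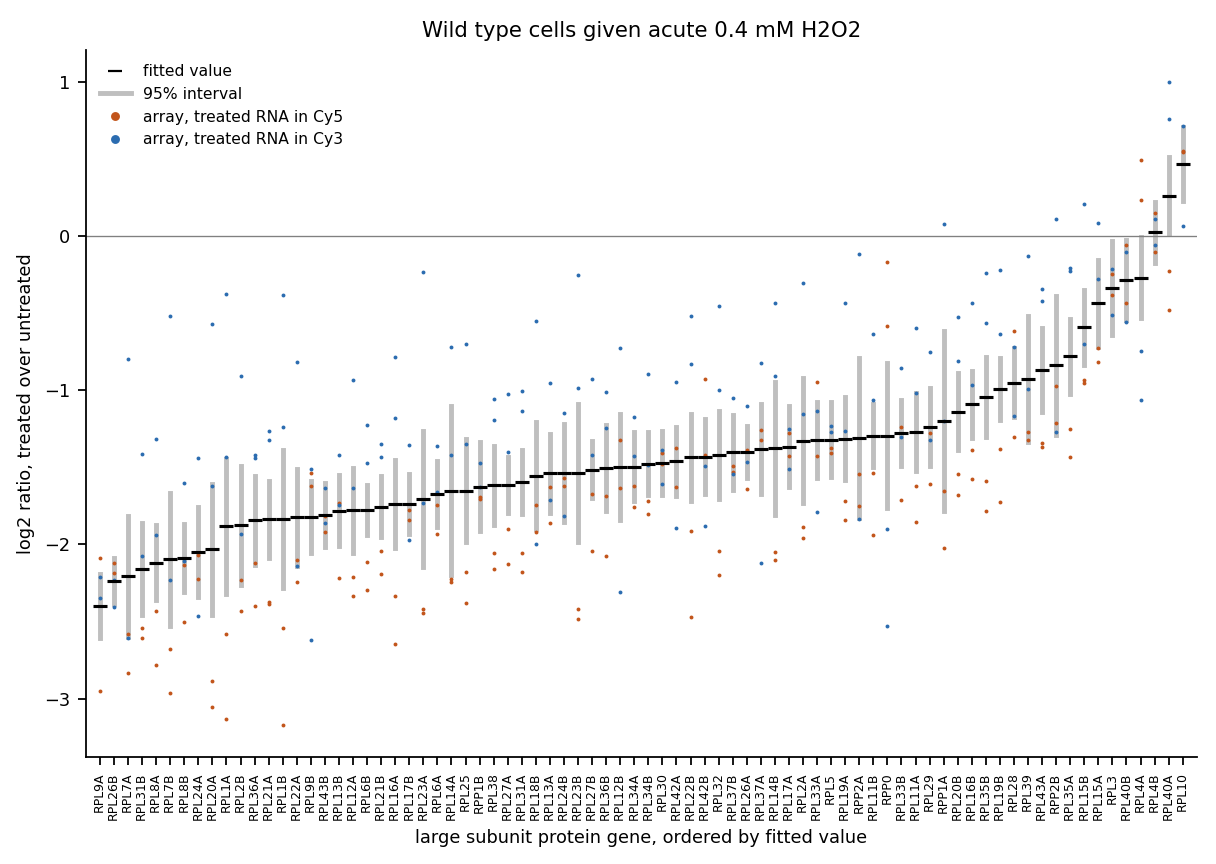
Log2 ratio of treated over untreated RNA in wild type cells after the acute protocol for 78 of the 79 tested members, ordered by fitted value (bar) with its 95% interval (grey) and the 4 arrays (points, coloured by the dye of the treated RNA). Fitted values run from -2.40 for RPL9A to 0.47 for RPL10, and the members at the right end (RPL3, RPL4A, RPL4B, RPL10, RPL40A and RPL40B) stand near or above 0.

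The 5 lowest members were RPL9A, RPL26B, RPL7A, RPL31B and RPL8A. RPL9A was at -2.95, -2.09, -2.35 and -2.21 on the acute arrays, with a fitted value of -2.40 ± 0.10 (SE, 4 arrays, adjusted p = 3.16e-15, limma). RPL26B, whose protein sits near the tunnel exit, was at -2.12, -2.19, -2.23 and -2.41, fitted at -2.24 ± 0.07 (adjusted p = 3.83e-17, limma). Its arrays lay close together whichever dye held the treated RNA. RPL7A, whose protein binds ribosomal RNA early in assembly, was at -2.58, -2.84, -0.80 and -2.61 (fitted -2.21 ± 0.19), so that replicate 3 stood apart from the other arrays. RPL31B, at the tunnel exit, was at -2.54, -2.61, -1.42 and -2.07 (fitted -2.16 ± 0.14). RPL8A was at -2.43, -2.78, -1.32 and -1.94 (fitted -2.12 ± 0.12). For all 5 genes every acute array was below 0.

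At the other end, 4 members were not lowered. RPL10, a protein of the peptidyl transferase region that joins the subunit late and is carried by its chaperone Sqt1, was at 0.55, 0.55, 0.07 and 0.71 on the acute arrays. It was the only member raised in this fit (0.47 ± 0.12 SE, adjusted p = 0.000928, limma), RPL40A being raised too after centring or loess and RPL4B after loess. It was also the only tested member above 0 on all 4 arrays, where this held for 25.5% of all tested ORFs. RPL4B, whose protein reaches into the tunnel, was at 0.15, -0.11, 0.11 and -0.06 (fitted 0.02, 95% interval -0.18 to 0.22). Its copy RPL4A was at 0.49 and 0.24 with treated RNA in Cy5 and at -1.06 and -0.75 with Cy3 (fitted -0.27, adjusted p = 0.0614, limma), so the sign followed the dye. RPL40A was at -0.23 and -0.48 with Cy5 and at 1.00 and 0.76 with Cy3 (fitted 0.26, adjusted p = 0.0547, limma), again split by dye and not called. After centring of each array RPL40A was at 0.34 (adjusted p = 0.0147, limma) and after loess at 0.50 (adjusted p = 0.00344, limma), and it was called without replicate 2 as well (0.0104).

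RPL40A and RPL40B encode the same late joining protein, made as a fusion to ubiquitin. RPL40B was at -0.06, -0.43, -0.10 and -0.56 (fitted -0.29 ± 0.13 SE, adjusted p = 0.0431, limma), all below 0 but by little. Its call was lost without replicate 2, 3 or 4 (adjusted p of 0.0628, 0.103 and 0.446, limma). The polyubiquitin gene UBI4, which shares the ubiquitin sequence, was at 3.46, 2.85, 3.02 and 3.54 on the same arrays and at 3.22 in the fit. RPS31, the small subunit gene fused to ubiquitin, was at -0.38, -0.15, -2.10 and -1.57 (fitted -1.05). Whether signal from UBI4 reached the RPL40 probes was not tested.

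RPL3, a protein next to the peptidyl transferase centre, was at -0.39, -0.24, -0.51 and -0.22 (fitted -0.34 ± 0.15 SE, adjusted p = 0.042, limma). It was below 0 on every array and changed far less than the median member. RPL15A (-0.44) and RPL15B (-0.59) were also among the least lowered, each with 1 array above 0. Their fits had adjusted p-values of 0.00648 and 9.72e-05 (limma).

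By role, the acute protocol lowered all 7 genes of the stalk and its base, all 3 of the 5S particle and both genes of the L1 stalk. It lowered 12 of 14 genes of the tunnel and its exit, the others being RPL4A and RPL4B. Of the 4 genes of the peptidyl transferase region, RPL2A, RPL2B and RPL3 were lowered and RPL10 was raised. Of 7 genes listed as late joining 6 were lowered, the other being RPL40A. RPL10, which also joins late, was counted only with the peptidyl transferase region. The 42 tested genes in none of these lists, RPL9A and RPL9B among them, were all lowered, with values from -2.40 to -0.44. Of all tested ORFs, 41.3% were lowered. Median values were -1.86 for the L1 stalk genes, -1.34 for the tunnel, -1.31 for the stalk and its base, -1.30 for the 5S particle and -0.83 for the peptidyl transferase region. The lists are small and their values overlapped, as in the tunnel (-2.24 to 0.02) and the stalk and its base (-1.78 to -0.84). Differences between the lists were not tested.

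The stalk genes differed in how far their arrays lay apart. RPP0, the base of the stalk, was at -0.59 and -0.17 with treated RNA in Cy5 and at -2.53 and -1.90 with Cy3 (fitted -1.29 ± 0.23 SE, adjusted p = 2.16e-05, limma). RPP1A was at -2.02 and -1.65 with Cy5 and at 0.08 and -1.20 with Cy3 (fitted -1.20 ± 0.28). RPP1B, by contrast, stood at -1.69, -1.71, -1.63 and -1.47 on the 4 arrays (fitted -1.63 ± 0.14). RPP2A was at -1.75, -1.54, -0.11 and -1.83 (fitted -1.31 ± 0.25), and RPP2B at -1.22, -0.97, 0.11 and -1.27 (fitted -0.84 ± 0.22). The 4 acidic proteins RPP1A, RPP1B, RPP2A and RPP2B bind RPP0 as dimers and contact the elongation factors. Replicate 3 was the highest array for RPP1A, RPP2A and RPP2B, and the lowest for RPP0.

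RPL41A, which was outside the fit, had the largest standard deviation of all members with values on the acute arrays. It was at 1.20 and 1.05 with treated RNA in Cy5 and at -1.95 and -1.09 with Cy3 on the acute arrays. The arrays of each orientation lay on opposite sides of 0, and no direction can be read from them. On the adapted arrays RPL41A was at 0.31, 0.41, 0.0016 and -1.08 and RPL41B at -0.03, 0.02, 0.32 and -0.58, and on the pretreated arrays RPL41B was at -0.47, -0.73, 0.24 and 0.22. In the deletion strains the mean of the copies was between -0.24 and 0.27.

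Acute and adapted cells both received 0.4 mM, and their difference asks what the earlier mild dose changed. Of 79 members, 71 were lower in acute than in adapted cells and 1 was higher, where 32% and 27.1% of all tested ORFs were lower and higher. The median difference was -1.42 (acute minus adapted), against -0.04 for all tested ORFs. Every acute array lay below every adapted array for 56 members, where this held for 18.3% of all tested ORFs, and in no member did every acute array lie above, where this held for 15.5%. Within the arrays with treated RNA in Cy5 the median difference was -1.59, and within those with Cy3 it was -1.21. In both orientations 75 of the 79 members were lower, among them all 71 that were called on the mean of both. The share of all tested ORFs was not computed for this.

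RPL7A stood at -2.58, -2.84, -0.80 and -2.61 on the acute arrays, against -0.51, -0.61, 0.29 and 0.56 on the adapted arrays, a difference of -2.14 ± 0.27 (SE, adjusted p = 4.69e-07, limma). The 2 sets of arrays did not overlap. Its copy RPL7B differed by -2.13 ± 0.29, RPL26B by -2.08 ± 0.10, RPL20A by -2.07 ± 0.29 and RPL9A by -2.04 ± 0.14. RPL10 stood at 0.55, 0.55, 0.07 and 0.71 on the acute arrays, against -0.42, -0.42, 0.19 and 0.0015 on the adapted arrays. It was higher in acute cells by 0.63 ± 0.16 (adjusted p = 0.00202, limma), with overlap in replicate 3 of both groups.

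After RPL10, the highest values of acute minus adapted were those of RPL40A (0.34), RPL4B (-0.07), RPL40B (-0.24) and RPL3 (-0.27), none of which passed. RPP2B did not pass either (-0.71, adjusted p = 0.0527, limma). Among the other stalk genes the difference was -1.58 ± 0.32 for RPP0, -1.62 ± 0.20 for RPP1B, -1.02 ± 0.40 for RPP1A and -0.97 ± 0.35 for RPP2A. The call of RPP1A was lost without adapted replicate 4 or acute replicate 1, 2 or 4 (adjusted p of up to 0.133, limma), and that of RPP2A without replicate 4 of either group (up to 0.115).

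Acute minus pretreated gave 73 members lower and 1 higher, where 35.4% and 28.4% of all tested ORFs were, with a median of -1.54. It shares the acute arrays with the contrast above. Among the largest differences were those of RPL7A (-2.52 ± 0.27 SE), RPL7B (-2.49), RPL9A (-2.31) and RPL20A (-2.28), and RPL10 was higher by 0.42 ± 0.16 (adjusted p = 0.0285, limma). The call of RPL10 was lost without acute replicate 1, 2 or 4 or pretreated replicate 3 or 4 (adjusted p of up to 0.0916, limma).

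The deletion strains ask whether the ratios after the mild dose differ without a transcription factor. In the fit of all arrays no member was called in pretreated wild type cells. Which factor a response of the members would need therefore cannot be read from these strains. Mga2 is known from the regulation of membrane lipid genes, Rox1 represses hypoxic genes, and Yap1 activates antioxidant genes. In mga2Δ cells the median member was at -0.07 and in rox1Δ cells at 0.05. Neither strain had a member called in its own ratio, where 0.0229% of all tested ORFs were called in mga2Δ and 0.0915% in rox1Δ cells (limma). At an unadjusted p under 0.05 there were 1 lower member in mga2Δ cells (RPL26B), and 8 higher and 1 lower in rox1Δ cells (RPL26B again the lower). The share of all tested ORFs at this threshold was not computed, so no excess can be read from such counts. The 95% interval lay within 0.5 of 0 for 63 members in mga2Δ and 65 in rox1Δ cells. Against wild type cells, no member differed in mga2Δ (0.0229% of all tested ORFs, with 3 lower at an unadjusted p under 0.05) or in rox1Δ cells (1.44%, with 4 higher and 1 lower).

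In treated yap1Δ cells 29 of 79 members were lowered against the untreated RNA and 1, RPL40A, was raised, where 20.6% and 15.3% of all tested ORFs were lowered and raised. The median member was at -0.26, 83.6% of the untreated level, against -0.07 for all tested ORFs. All 4 arrays were below 0 for 37 members, where this held for 25.2% of all tested ORFs. RPL34A was at -0.52, -0.65, -0.62 and -0.54 (fitted -0.58 ± 0.11 SE, adjusted p = 0.000197, limma). RPL29, a small protein that joins late, was at -0.40, -0.59, -0.85 and -0.59 (fitted -0.61 ± 0.12). RPL18B was at -0.72, -0.85, -0.67 and -0.40 (fitted -0.66 ± 0.17), the lowest of the members. In all 3 genes each array was below 0 in either dye orientation. Without yap1Δ replicate 2 the members called were 17, all lowered, where 14.3% of all tested ORFs were lowered. Without the dye term 7 were lowered (7.04% of all tested ORFs), and with the yap1Δ arrays fitted alone 63 were lowered and 2 raised (39.6% and 24%). After centring of each array 14.3% of all tested ORFs were lowered and 18.2% raised, with 23 members lowered and 1 raised.

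RPL31B was at -0.74, -0.9985, -0.41 and -0.40 on the yap1Δ arrays (fitted -0.64 ± 0.14 SE). RPL7B was at -1.33 and -1.44 with treated RNA in Cy5 and at 0.27 and 0.11 with Cy3 (fitted -0.60 ± 0.21, adjusted p = 0.0285, limma), so that its arrays were on both sides of 0. Its call was lost without replicate 1, 2 or 4 (adjusted p of up to 0.14, limma). RPL40A was at -0.09 and 0.24 with Cy5 and at 0.70 and 0.56 with Cy3 (fitted 0.35 ± 0.12, adjusted p = 0.0276, limma), a call lost without replicate 2 or 3 (0.166 and 0.0719). UBI4 on the same arrays was at 1.85, 2.17, 1.90 and 2.04, and the part of its shared sequence in the RPL40A value was not tested. The stalk genes RPP0, RPP1A, RPP1B, RPP2A and RPP2B were between -0.24 and -0.03 and none was called. Lowered were 1 of 3 genes of the 5S particle (RPL11B), 6 of 14 of the tunnel and 2 of 7 listed as late joining. Of the 42 tested genes in none of the lists 20 were lowered. None of the 4 genes of the peptidyl transferase region was called, and neither L1 stalk gene was. Of all tested ORFs 20.6% were lowered. Differences between these lists were not tested.

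Set against pretreated wild type cells, 12 members had a lower ratio in yap1Δ cells and none a higher one, where 6.88% and 9.56% of all tested ORFs did. They were RPL6B, RPL7A, RPL7B, RPL11B, RPL13A, RPL15B, RPL18B, RPL19A, RPL19B, RPL31B, RPL34A and RPL36B. The 12 were called on the mean of both dye orientations, and all were lower within each orientation. Of all 79 members, called or not, 40 were lower in both orientations. The share of all tested ORFs was not computed for this. The count of lower members was 4 without wild type replicate 1 or 2 (3.73% and 3.57% of all tested ORFs lower), 5 without yap1Δ replicate 2 or 4 (4.18% and 4.23%), and 0 without the dye term (1.03%). More members were called with a dye term per group, or with only the compared arrays fitted, as given at the end. Every yap1Δ array lay below every wild type array for 6 of the 79 members, where this held for 6.65% of all tested ORFs.

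**Figure D3:**
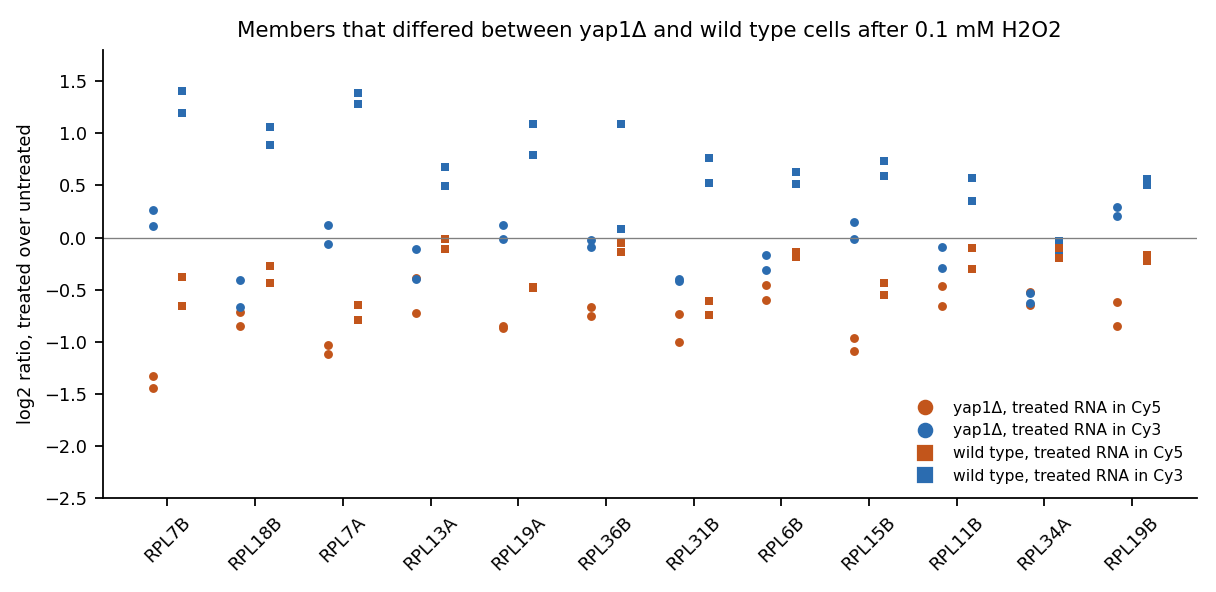
Log2 ratio of treated over untreated RNA after 0.1 mM H2O2 for the 12 members whose ratio differed between yap1Δ (circles, left) and wild type cells (squares, right), with colour for the dye of the treated RNA. Within each colour the yap1Δ arrays averaged lower than the wild type arrays for all 12 genes, and for all of them but RPL34A the wild type arrays lie on both sides of 0. The 12 genes were chosen on the mean over both colours.

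RPL18B was at -0.72, -0.85, -0.67 and -0.40 in yap1Δ cells, against 1.06, 0.89, -0.44 and -0.27 in wild type cells, a difference of -0.97 ± 0.24 (SE, adjusted p = 0.00678, limma). Compared within a dye, the difference was -0.43 with treated RNA in Cy5 and -1.51 with Cy3. RPL7B differed by -0.99 ± 0.29 (adjusted p = 0.0235, limma), by -0.87 with Cy5 and by -1.11 with Cy3. RPL34A was at -0.52, -0.65, -0.62 and -0.54 in yap1Δ cells, against -0.03, -0.12, -0.20 and -0.10 in wild type cells, with little spread in either group (difference -0.47 ± 0.15, adjusted p = 0.035, limma). RPL7A differed by -0.83, RPL13A by -0.67 and RPL19A by -0.63. Of the calls of RPL7A, RPL7B, RPL13A, RPL18B and RPL19A, only that of RPL18B was kept whichever array of the 2 groups was left out. Without wild type replicate 1 or 2 those of RPL7A, RPL7B and RPL19A were lost (adjusted p of up to 0.15, limma) and without wild type replicate 2 that of RPL13A (0.0535). Without yap1Δ replicate 1 or 2 those of RPL7A and RPL7B were lost, without replicate 3 that of RPL7A and without replicate 4 those of RPL7A and RPL19A (up to 0.0915). RPL6B had the lowest adjusted p of the 12 (0.00075, limma) at -0.59 ± 0.11.

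Most members come as an A and a B copy. Where the coding sequences are nearly the same, a probe can also bind the mRNA of the other copy. Pairs were taken by name, with RPP1 and RPP2 included, whatever the likeness of their copies. Probe sequences were not used here, and such cross-hybridization was not tested. On the acute arrays 34 pairs had both values. The median absolute difference between copies was 0.29 on the log2 scale, and 10 pairs differed by more than 0.5 in the mean. For 11 pairs the sign was the same on all 4 arrays. In an exact two-sided sign-flip test over 4 arrays no pair can go below p = 0.125, which these 11 pairs reached, so no pair passed 0.05.

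RPL43A was lowered less than RPL43B. The A minus B difference was 0.55 and 0.47 with treated RNA in Cy5 and 1.44 and 1.30 with Cy3, with a mean of 0.94. RPL43A itself stood at -1.37, -1.34, -0.42 and -0.34 on the acute arrays, and RPL43B at -1.92, -1.81, -1.86 and -1.64. The copies encode the same protein, and the A copy varied with the dye while the arrays of the B copy lay close together.

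RPL26A was likewise lowered less than RPL26B, with A minus B at 0.73, 0.54, 0.77 and 1.31 (mean 0.84). RPL31A was lowered less than RPL31B, with 0.36, 0.55, 0.28 and 1.06 (mean 0.56). RPL16A was lowered more than RPL16B, with -0.76, -1.26, -0.21 and -0.35 (mean -0.65). In these 3 pairs the 4 arrays shared the sign. RPL20A minus RPL20B was at -1.34, -1.37, 0.24 and -1.10 (mean -0.89) and RPL9A minus RPL9B at -1.33, -0.55, 0.27 and -0.70 (mean -0.58), where replicate 3 had the opposite sign in both pairs.

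**Figure D4:**
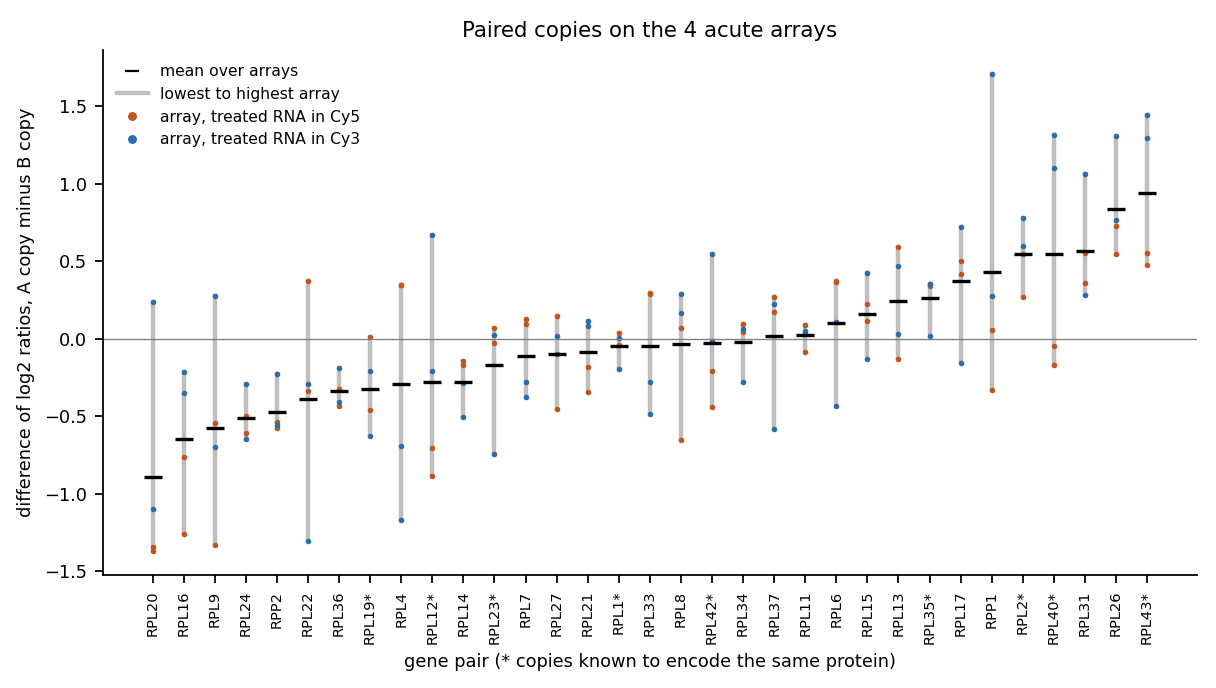
Difference between the log2 ratios of the A and the B copy on the 4 acute arrays (points, coloured by the dye of the treated RNA) for 33 of the 34 pairs with both values, with the mean (bar) and the range (grey). Means run from -0.89 for RPL20 to 0.94 for RPL43, and 10 of the pairs drawn have all arrays on 1 side of 0.

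For the 10 pairs known to encode the same protein the median absolute difference on the acute arrays was 0.30, against 0.28 for the other 24 pairs. Among the known pairs, RPL2, RPL35 and RPL43 were some that kept 1 sign on all 4 arrays (means of 0.55, 0.26 and 0.94). RPL1 was nearly equal in both copies (-0.05), although each copy ranged widely over the arrays. RPL1A was at -3.13, -2.58, -0.38 and -1.44, and RPL1B at -3.17, -2.54, -0.38 and -1.24. The copies tracked each other array by array.

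The median absolute difference between copies was 0.07 in mga2Δ, 0.10 in rox1Δ and 0.12 in yap1Δ cells, and 0.08 in pretreated and 0.06 in adapted wild type cells. In yap1Δ cells 11 of 35 pairs kept 1 sign, as against 2 of 34 in pretreated wild type cells. Pairs of the small subunit gave similar counts, 11 of 24 in yap1Δ and 2 of 24 in pretreated wild type cells. The difference between these groups was not tested. Single-copy genes gave an acute median of -1.29 (10 of 11 lowered, 1 raised), against -1.53 for the tested members of pairs (65 of 68 lowered).

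The genes of assembly, regulation and elongation around the subunit were measured on the acute arrays too, where 41.3% of all tested ORFs were lowered and 32.5% raised. Of 20 tested assembly and export factors 19 were lowered, from -1.80 (ARX1) to -0.27 (REI1), with a median of -1.18, and MEX67 was not called. The dedicated chaperones were lowered unequally: RRB1, which escorts RPL3, fell by 1.42, SYO1, which imports RPL5 and RPL11, fell by 1.47, ACL4, which escorts RPL4, fell by 1.00, and SQT1, which escorts RPL10, fell by 0.29. Among listed regulators of ribosomal protein and ribosome biogenesis genes, 4 of 10 tested were lowered, close to the share of all tested ORFs. They were RAP1 (-1.19), TOD6 (-1.19), ABF1 (-0.64) and IFH1 (-0.53). The list mixes activators with repressors such as TOD6. STB3 was raised (0.67). SFP1 was at -0.01 and FHL1 at -0.50 ± 0.52 (SE), and neither was called. Of 8 tested elongation factor genes 6 were lowered, among them TEF4 (-1.35) and EFB1 (-1.34), and CAM1 was raised (0.31).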

How the data were processed

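Treated over untreated ratios were computed as log2 of channel 1 over channel 2 from the intensity table that the authors deposited after background and quantile normalization. Its values show that quantiles were matched within a group, so the spread between arrays is understated for the most changed ORFs. The table of spots without gene names was not used. Of 6251 ORFs 5751 matched a gene name (RefSeq), and 4373 with a value on at least 3 of 4 arrays in every group were tested. The fit (limma 3.58.1, R 4.3.3; lmFit, eBayes) used all 24 arrays, with a coefficient for each of the 6 groups, 1 dye coefficient for each ORF, 17 residual degrees of freedom, two-sided tests and Benjamini-Hochberg adjustment over all tested ORFs at 0.05. It was tested on data simulated with independent normal noise and the same shared dye term. Dye terms that differ between groups were not simulated. Errors are the standard errors of the fit. Treated RNA is in Cy3 in replicates 1 and 2 of pretreated wild type, mga2Δ and rox1Δ cells and in Cy5 in those of the other groups. Copies were compared with an exact sign-flip test.

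The members and lists were chosen with earlier results of these data known. Named are the stalk genes, the 5 lowest and highest members in acute cells and in acute minus adapted, up to 5 called members per direction elsewhere, the 6 pairs with the largest acute difference and pairs of identical proteins, and members without a value. RPL3 in acute cells, RPL15A, RPL15B and RPL6B were named after their values were seen. The labels give 45 min for the pretreatment, while the methods imply 1 h. The number of arrays limits the precision (median SE 0.13 over members for a group). Values of 1 member are not reported here by name.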

Additional observations from a re-analysis of the deposited data

Results flagged for a closer look

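On the acute arrays RPL7A had 1 array far from the other 3, replicate 3 at -0.80, and RPP2A likewise replicate 3 at -0.11. On the adapted arrays RPL9B had replicate 2 at -0.21, apart from 3 arrays close to each other. These were 3 of 35 sets of 4 arrays examined. The rule flags about 1 in 20 sets of independent, normally distributed values. The sets here mix dye orientations and share arrays, so that rate may not hold. Of the acute arrays, replicate 3 also had the highest median of the members (-1.06).

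The ratio after the mild dose differed between yap1Δ and wild type cells for RPL7B (-0.99), RPL18B (-0.97), RPL7A (-0.83), RPL13A (-0.67) and RPL19A (-0.63), each by the contrast of the limma fit and each as yap1Δ minus wild type.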

How the results depend on the processing

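The count of members called kept within 1.5 times its value under every alternative run for the acute ratios, acute minus adapted, acute minus pretreated, the mga2Δ and rox1Δ ratios and mga2Δ minus wild type, except for arrays left out in rox1Δ. The members' medians moved by less than the spread between arrays under every alternative (acute -1.31 after loess). Without the dye term 0 members were called in adapted cells, 7 in yap1Δ cells and 0 in yap1Δ minus wild type. With a dye term per group the counts were 1 in pretreated and 7 in adapted cells, 2 in adapted minus pretreated, 4 in rox1Δ minus wild type and 37 in yap1Δ minus wild type. Fitting only the arrays compared gave 33 in pretreated, 17 in adapted and 65 in yap1Δ cells and 20 in yap1Δ minus wild type, and 32, 14, 62 and 20 with ORFs chosen for those groups. In pretreated and yap1Δ cells fitted alone the shares of all tested ORFs called rose as well, as given above. For the other counts of these alternatives no share is given here. They show how calls moved with the model and are not read as results about the members. In adapted cells centring left 1 and loess 0. The cause was not tested. With single arrays left out the counts were 0 to 1 in adapted cells, 0 to 1 in rox1Δ cells and in rox1Δ minus wild type (1 without rox1Δ replicate 4), 17 to 24 in yap1Δ cells (17 without replicate 2) and 4 to 11 in yap1Δ minus wild type (4 without wild type replicate 1 or 2, 5 without yap1Δ replicate 2 or 4).

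The sign turned in these cases. In yap1Δ cells RPP0 was at 0.015 after centring and 0.051 after loess, and RPP1B at 0.025 after loess. RPL4B in acute minus adapted was at 0.14 after loess. With arrays left out, RPL4B in acute cells was between -0.026 and 0.064, and in yap1Δ cells RPP0 was between -0.077 and 0.057, RPP1B between -0.18 and 0.052 and RPP2A between -0.28 and 0.039.

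Same-numbered arrays correlated by dye orientation (0.47 to 0.86 in the same orientation, -0.89 to -0.42 in the opposite one). The dye effect was left in these values, so they cannot show whether arrays of the same number belong together. In the main fit the numbers were not taken as pairs. With the replicate number as a block 2 members were called in adapted, 76 in acute and 30 in yap1Δ cells, 71 in acute minus adapted and 12 in yap1Δ minus wild type. These counts are in either direction and are given without the shares of all tested ORFs.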
